A study of Mus musculus with 8 samples.

Results

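The mitochondrial carriers of the Slc25 family were followed on 8 Illumina bead arrays of brown adipose tissue and quadriceps muscle from C57BL/6J mice. Members were all genes whose symbol begins with Slc25a and a digit. The array held 49 such probes for 39 genes, out of 24607 probes, and 33 of these probes, for 30 genes, were among the 11946 probes above background on both arrays of at least 1 group. Each of the 4 groups had 2 arrays: brown fat after 4 h at 4 °C, brown fat at room temperature, muscle after 4 h at 4 °C and muscle at room temperature. The labels give no genetic change or drug in any group. Cold-exposed mice had food overnight and had neither food nor bedding while in the cold, and the handling of the room-temperature mice is not stated, so cold cannot be told apart from the lack of food and bedding if the controls kept theirs. The series is titled for a role of Zbtb16 in the bioenergetics of brown adipocytes, and the comparisons here ask which carriers differ with cold and between the tissues.

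Slc25 carriers are nuclear-encoded proteins that sit, with few exceptions, in the inner mitochondrial membrane and exchange nucleotides, phosphate, carboxylic acids, amino acids, cofactors and metal ions between the cytosol and the matrix. The uncoupling protein Ucp1, through which brown fat turns the proton gradient into heat, belongs to the same protein family. In skeletal muscle the best known members export the ATP made by respiration and bring in phosphate and ADP.

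Levels are given as log2 intensity after background correction and quantile normalization, and differences as log2 differences of group means with their standard error (SE). A gene passed the test, and is said to have risen or fallen, when its adjusted p in limma, over the 9963 genes tested, was under 0.05. Arrays had 10468 to 11280 probes above background, and replicates correlated across the 30 Slc25a genes at 0.988 in cold brown fat, 0.993 in brown fat at room temperature, 0.958 in cold muscle and 0.996 in muscle at room temperature. Tissue markers showed that 2 arrays stood apart from their replicates. The summed level of 10 muscle markers on cold brown fat array 1 was 0.298% of the highest array, against 32.9% on cold brown fat array 2 and 27.5% and 33.1% on the brown fat arrays at room temperature. On cold brown fat array 1 the muscle genes Ckm, Myh4, Tnnt3 and Actn3 were not above background. The summed level of 10 brown fat and adipocyte markers was 24.8% and 59.3% of the highest array on cold muscle arrays 1 and 2, against 19.4% and 19.8% in muscle at room temperature. Ucp1 had a log2 intensity of 9.16 and 14.45 on cold muscle arrays 1 and 2, against 6.18 and 5.93 on the muscle arrays at room temperature. The defining markers of each labelled tissue were present on all of its arrays, but 3 of the 4 brown fat arrays also carried muscle transcripts and both cold muscle arrays carried more brown fat transcripts than muscle at room temperature, array 2 far more than array 1. Adipoq, an adipocyte hormone, had 11.45 and 13.23 on cold muscle arrays 1 and 2, against 9.83 and 10.40 at room temperature, so values without array 2 are not free of such transcripts. Cold brown fat array 1 and cold muscle array 2 are called the marked arrays. Values without both are given beside several of the cold results. In bulk tissue, fewer cells of a type and less RNA per cell cannot be told apart.

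In cold brown fat the share of carriers that changed was close to that of all tested genes, and in cold muscle 2 carriers changed. In brown fat 3 of the 30 genes rose and 1 fell, where 8.38% of all tested genes rose and 8.24% fell. Slc25a25, Slc25a26 and Slc25a38 were the genes that rose, and Slc25a45 fell. In muscle 2 rose and none fell, where 1.83% of all tested genes rose and 2.38% fell. These were Slc25a25 and Slc25a30. In limma, 3 carriers had a lower mean in cold muscle at an unadjusted p under 0.05, Slc25a11, Slc25a27 and Slc25a47, and none of them passed after adjustment. Without cold muscle array 1, the array with the most brown fat transcripts stood alone for cold muscle. The median muscle effect was then 0.11 over the 30 carriers and -0.03 over all genes tested. Without either brown fat array at room temperature or without cold brown fat array 1, no carrier passed as higher in cold brown fat. With both marked arrays left out, 3 carriers fell in cold brown fat, Slc25a45, Slc25a10 and Slc25a37, where Slc25a37, an iron carrier, had a log2 difference of -0.61 (adjusted p = 0.0413), against -0.38 (adjusted p = 0.162) with all arrays. The median log2 difference over the 30 genes was -0.10 in brown fat and 0.01 in muscle, beside 0.02 and -0.02 over all genes tested. A list of 16 mitochondrial genes, such as citrate synthase, Tfam and subunits of the respiratory chain, had no member past the threshold for either cold effect. Its medians were 0.05 in brown fat and -0.02 in muscle (1 and 0 members at an unadjusted p under 0.05, limma). Several of these genes lay near the top of the intensity scale, such as Cox5b at 14.70 to 14.82 over the arrays, where differences may be compressed.

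Slc25a25 had the largest cold effect of the family in both tissues among the genes that passed. It encodes a calcium-regulated carrier that exchanges ATP-magnesium for phosphate and so sets the adenine nucleotide content of the matrix. In muscle its log2 intensity was 11.43 and 11.21 in the cold, against 7.71 and 8.29 at room temperature. Both cold arrays lay far above both room-temperature arrays, a 9.95-fold difference (log2 difference 3.31, SE 0.20, adjusted p = 0.00123, n = 2 arrays a group, limma). In brown fat it was 7.21 and 7.02 in the cold, against 6.36 and 6.20 at room temperature. The brown fat groups did not overlap either, and the difference was 1.79-fold (log2 difference 0.84, SE 0.20, adjusted p = 0.0315). The cold effect in brown fat was smaller than that in muscle (difference of the cold effects, brown fat minus muscle, -2.48 on the log2 scale, SE 0.28, adjusted p = 0.0129), in a comparison where 2.08% of all tested genes had a higher and 2.14% a lower cold effect in brown fat.

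Cold muscle array 2, with the most brown fat transcripts of the muscle arrays, had the lower Slc25a25 level of the pair, and without it and cold brown fat array 1 the muscle effect was 3.43 (adjusted p = 0.00345). The muscle call held under all 19 alternative settings, with effects between 3.02 and 3.60. In brown fat, cold brown fat array 1, which lacked the muscle transcripts, had the higher level of its pair. Slc25a25 had a brown fat effect of 0.75 without both marked arrays (adjusted p = 0.0968). The brown fat effect of Slc25a25 without cold brown fat array 1 was 0.75 (adjusted p = 0.129), without cold array 2 it was 0.93 (0.0560), without room-temperature array 1 it was 0.92 (0.0881), and without room-temperature array 2 it was 0.76 (0.147). None of these values passed, and all were above 0. The difference of cold effects in Slc25a25 did not pass without room-temperature brown fat array 1 (-2.40, adjusted p = 0.0633) or array 2 (-2.56, adjusted p = 0.0606).

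RefSeq lists 3 promoter windows of 300 bases for Slc25a25 on mouse chromosome 2 (GRCm38.p6, minus strand), at chr2:32451421-32451720, chr2:32431102-32431401 and chr2:32424017-32424316. The arrays do not show which start the measured transcripts used. The third window is shown because it holds the full palindromic cAMP response element TGACGTCA, printed in capitals at bases 101 to 108, the motif bound by factors of the CREB family. The window of Slc25a30, the other carrier that rose in muscle, at chr14:75786988-75787287 (minus strand), is shown beside it, and none of the 4 motifs searched was found in it.
Slc25a25: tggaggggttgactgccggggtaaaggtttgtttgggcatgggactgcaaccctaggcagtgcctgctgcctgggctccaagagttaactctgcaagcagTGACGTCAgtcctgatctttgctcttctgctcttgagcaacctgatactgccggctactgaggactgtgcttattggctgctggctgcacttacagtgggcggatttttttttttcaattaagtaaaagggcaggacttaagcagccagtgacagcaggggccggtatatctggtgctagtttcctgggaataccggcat
Slc25a30: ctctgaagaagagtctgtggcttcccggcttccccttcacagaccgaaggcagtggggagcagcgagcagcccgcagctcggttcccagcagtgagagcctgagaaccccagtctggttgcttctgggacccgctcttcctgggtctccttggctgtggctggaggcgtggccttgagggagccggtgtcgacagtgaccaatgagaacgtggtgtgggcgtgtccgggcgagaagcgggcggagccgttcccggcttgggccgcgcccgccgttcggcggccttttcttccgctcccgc
Windows were available for 30 of the Slc25a genes on the array, 39 windows in all, so the other genes were not searched. These 30 are not the same set as the 30 tested genes. The cAMP response element was found in 2 of these windows, in Slc25a25 and Slc25a36, and in 1.79% of all 32851 promoter windows. Slc25a36, which carries pyrimidine nucleotides, did not pass for a cold effect in either tissue. The forkhead motif GTAAACA was in no Slc25a window and in 3.65% of all windows, and the motif of estrogen-related receptors, TNAAGGTCA, was in no Slc25a window and in 1.28% of all. The E-box CACGTG was in 8 of the Slc25a windows and in 7.15% of all. Both strands were searched, and a match is a run of letters, not a measured binding site.

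Slc25a30 encodes a relative of the uncoupling proteins that was first described in kidney. In muscle its log2 intensity was 8.16 and 7.87 in the cold, against 6.58 and 6.65 at room temperature. The groups were well apart, a 2.64-fold difference (log2 difference 1.40, SE 0.13, adjusted p = 0.00403). In brown fat it was 7.42 and 7.27 in the cold, against 6.97 and 7.06 at room temperature, and this smaller difference did not pass (log2 difference 0.33, SE 0.13, adjusted p = 0.121). The difference between the cold effects, brown fat minus muscle, was -1.07 (SE 0.18, adjusted p = 0.0325). Cold muscle array 2 again had the lower level of its pair. With both marked arrays left out, Slc25a30 had a muscle effect of 1.55 (adjusted p = 0.00582) and a difference of cold effects of -1.29 (adjusted p = 0.0290). When the arrays were scaled to equal medians instead of being quantile normalized, the muscle effect of Slc25a30 was 1.20 and did not pass (adjusted p = 0.267). Its difference of cold effects, taken without any 1 of the 4 arrays at room temperature or of the 2 cold brown fat arrays, lay between -1.14 and -0.998, and its adjusted p between 0.0537 and 0.120.

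The other carriers that passed for cold did so in brown fat, with changes of less than 1 on the log2 scale. Slc25a26 imports S-adenosylmethionine, the methyl donor of the matrix. Its log2 intensity was 10.43 and 10.10 in cold brown fat, against 9.79 and 9.71 in brown fat at room temperature. Both cold arrays were higher, by 1.42-fold on average (log2 difference 0.51, SE 0.13, adjusted p = 0.0441). In muscle Slc25a26 had 9.57 and 9.72 in the cold and 9.82 and 9.75 at room temperature, with a log2 difference of -0.14 that did not pass (adjusted p = 0.616). The difference between the cold effects on Slc25a26 did not pass (0.65, SE 0.19, adjusted p = 0.101). Without cold brown fat array 1, the higher of the pair, the brown fat effect was 0.34 (adjusted p = 0.167), and with both marked arrays left out it was 0.34 (adjusted p = 0.140).

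Slc25a38 imports glycine, from which heme synthesis starts. It had 8.88 and 8.96 in cold brown fat, against 8.34 and 8.59 at room temperature. The groups did not overlap, and the difference was 1.37-fold (log2 difference 0.45, SE 0.12, adjusted p = 0.0403). The second tested probe of the gene gave 0.40 (SE 0.17, adjusted p = 0.164) and did not pass. In muscle the Slc25a38 levels were 8.18 and 8.17 in the cold and 8.15 and 8.25 at room temperature, so the groups overlapped. Without cold brown fat array 1 the brown fat effect of Slc25a38 was 0.49 (adjusted p = 0.0991), and with both marked arrays left out it was 0.49 (adjusted p = 0.0917).

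Slc25a45, whose substrates are less well known, was the carrier that fell in cold brown fat. Its level was 7.26 and 7.24 in the cold, against 8.09 and 7.85 at room temperature. Replicates lay closer together than the groups did, and the gene fell by 0.72 on the log2 scale, a 1.65-fold difference (SE 0.13, adjusted p = 0.0137). In muscle it was 6.65 and 6.81 in the cold, against 7.02 and 6.81 at room temperature, a log2 difference of -0.19 that did not pass (adjusted p = 0.477). The difference of the cold effects on Slc25a45 did not pass (-0.53, SE 0.19, adjusted p = 0.141). Without cold brown fat array 1 the brown fat effect of Slc25a45 was -0.73 (adjusted p = 0.0531), and without room-temperature brown fat array 1 it was -0.60 (adjusted p = 0.0667). The call of Slc25a45 held without both marked arrays (-0.73, adjusted p = 0.0393). Of the 4 calls in brown fat, it was lost under the fewest alternatives (3 of 19), against 10 for Slc25a25, 11 for Slc25a26 and 12 for Slc25a38. Leaving out any 1 of the 8 arrays ended the call of Slc25a38, with effects between 0.33 and 0.58, and leaving out either brown fat array at room temperature, cold brown fat array 1 or either muscle array at room temperature ended that of Slc25a26, with effects between 0.34 and 0.55.

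**Figure D1:**
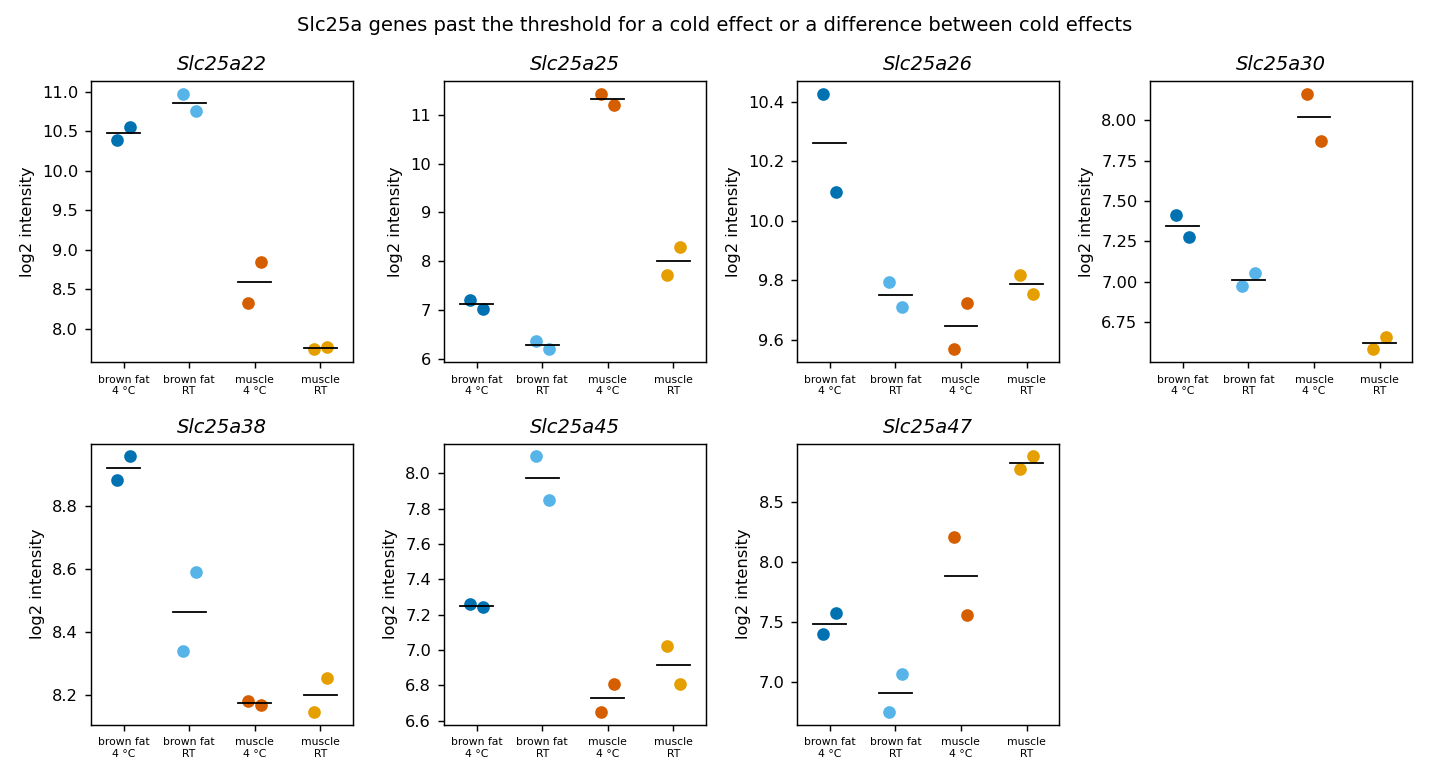
Log2 intensity of the 7 Slc25a genes that passed for a cold effect or for the difference between cold effects, with 1 point per array and a line at the mean of each group of 2 arrays (axes differ between genes and do not start at 0). Slc25a25 stands at 11.43 and 11.21 in cold muscle, against 7.71 and 8.29 on the muscle arrays at room temperature, and Slc25a45 is lower on both cold brown fat arrays than on both at room temperature.

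Besides Slc25a25 and Slc25a30, which had a lower cold effect in brown fat, the difference between cold effects passed for Slc25a22, also lower, and for Slc25a47, which was higher. Of the 30 carriers, 3 were thus lower and 1 higher, where 2.14% of all tested genes were lower and 2.08% higher. None of these calls held when either brown fat array at room temperature was left out. Without cold muscle array 1 the median difference was -0.31 over the 30 carriers and 0.06 over all genes tested, against -0.17 and 0.04 with all arrays. In both added genes the signs of the effects in the tissues were opposite while neither effect passed on its own. Slc25a22 brings glutamate into the matrix. It had 10.39 and 10.56 in cold brown fat, against 10.98 and 10.76 at room temperature, and 8.32 and 8.85 in cold muscle, against 7.74 and 7.76 at room temperature. The groups did not overlap in either tissue, with log2 differences of -0.39 in brown fat (SE 0.18, adjusted p = 0.189) and 0.84 in muscle (SE 0.18, adjusted p = 0.0530), and a difference of -1.22 between them (SE 0.26, adjusted p = 0.0487). With both marked arrays left out the difference for Slc25a22 was -0.88 (adjusted p = 0.0805). Its call was also lost without any 1 of the 8 arrays other than cold muscle array 1, with values between -1.34 and -0.96 and adjusted p between 0.0585 and 0.159.

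Slc25a47 is a carrier best known from liver. It had 7.40 and 7.57 in cold brown fat, against 6.75 and 7.07 at room temperature, and 8.21 and 7.56 in cold muscle, against 8.77 and 8.88 at room temperature. The cold brown fat arrays were both higher and the cold muscle arrays both lower than their controls, by log2 differences of 0.58 (SE 0.22, adjusted p = 0.118) and -0.94 (SE 0.22, adjusted p = 0.0636). The difference between these effects was 1.52 (SE 0.31, adjusted p = 0.0461). With both marked arrays left out, Slc25a47 had a difference of 1.28 (adjusted p = 0.0513). Without any 1 of the 4 brown fat arrays or of the 2 muscle arrays at room temperature, the difference for Slc25a47 lay between 1.36 and 1.68 and did not pass (adjusted p between 0.0818 and 0.160). Cold muscle array 2, which had the most brown fat transcripts of the pair, was the extreme array of the cold muscle pair for both Slc25a22 and Slc25a47. The part of those transcripts in these 2 differences was not tested beyond the values without the arrays.

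Carriers of the main energy substrates showed no cold effect past the threshold. The phosphate carrier Slc25a3 had log2 differences of -0.20 in brown fat and -0.01 in muscle, and the ADP/ATP carrier Slc25a4, the form typical of muscle, had 0.22 and 0.07. Slc25a5, the ADP/ATP carrier of many tissues, had 14.26 and 14.10 in cold brown fat, against 14.01 and 13.90 at room temperature, and 11.91 and 12.59 in cold muscle, against 11.21 and 11.36 at room temperature. Its groups did not overlap in either tissue, but neither effect passed (0.22, adjusted p = 0.526 in brown fat and 0.96, adjusted p = 0.0542 in muscle). Cold muscle array 2, with the most brown fat transcripts of the muscle arrays, had the higher Slc25a5 level of its pair. Cold muscle array 1, at 11.91, also lay above both room-temperature muscle arrays. The part of brown fat transcripts in the muscle effect of Slc25a5 was not tested. Among the carboxylate carriers, Slc25a10, which exchanges malate and succinate for phosphate, had widely spread replicates in the cold. Its level was 6.75 and 7.78 in cold brown fat, against 8.94 and 8.70 at room temperature, and 7.15 and 8.71 in cold muscle, against 6.68 and 7.17 at room temperature. The lower values in cold brown fat gave a log2 difference of -1.56 with an interval from -2.79 to -0.32 (adjusted p = 0.0873), and replicates of cold tissue differed by more than 1 in both tissues. Slc25a10 passed as lower in cold brown fat when the marked arrays were left out (-1.04, SE 0.22, adjusted p = 0.0335), and its muscle effect was 0.23, against 1.00 with all arrays. Slc25a1, the citrate carrier that supplies carbon for fatty acid synthesis, had differences of -0.04 in brown fat and 1.23 in muscle with an SE of 0.62, and neither passed. The muscle effect of Slc25a1 without the marked arrays was 0.19 (SE 0.37, adjusted p = 0.873) and its brown fat effect was 0.07 (adjusted p = 0.936).

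By role group, at most 1 carrier of a group passed for a cold effect in either tissue (limma). Over all tested genes, 8.38% rose and 8.24% fell in cold brown fat, and 1.83% rose and 2.38% fell in cold muscle. Of 6 tested carriers of adenine nucleotides and phosphate, 1 rose in each tissue, which was Slc25a25 both times. Of 6 tested cofactor and nucleotide carriers, 1 rose in brown fat (Slc25a26) and none passed in muscle. Of 7 tested amino acid and glutathione carriers, 1 rose in brown fat (Slc25a38) and none passed in muscle. Neither of the 2 mitoferrins, which import iron, and none of the 3 carboxylate carriers passed in either tissue, and at an unadjusted p under 0.05 these were 0 mitoferrins and 1 carboxylate carrier in each tissue, Slc25a10 in brown fat and Slc25a11 in muscle. Of the 3 homologues of the uncoupling proteins, 1 rose in muscle (Slc25a30). Slc25a27 had log2 differences of -0.37 in brown fat and -0.44 in muscle, with adjusted p of 0.0864 and 0.104.

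**Figure D2:**
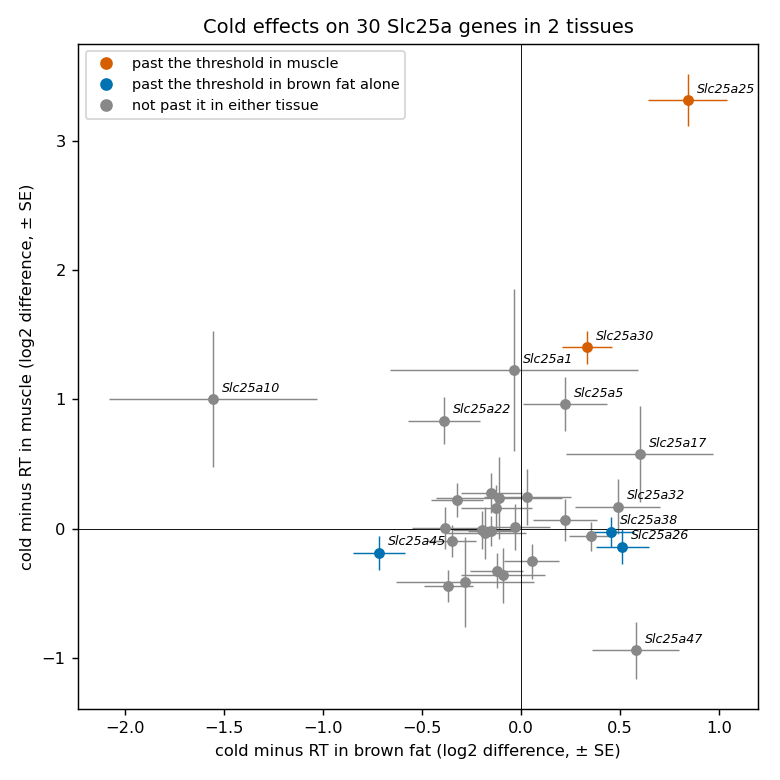
Cold minus room temperature in brown fat (horizontal axis) and in muscle (vertical axis), both as log2 differences with bars of ± SE, for the 30 tested Slc25a genes. Slc25a25 lies at 0.84 and 3.31 and Slc25a30 at 0.33 and 1.40, apart from the group of genes near 0, while Slc25a10 at -1.56 and 1.00 has wide bars.

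The tissues differed in most carriers. At room temperature 16 of the 30 genes were higher in brown fat than in muscle and 10 were lower, where 32.8% of all tested genes were higher and 33.4% lower. The median log2 difference (brown fat minus muscle) was 0.49 over the carriers and -0.01 over all genes tested. It was 0.47 over the list of 16 mitochondrial genes, several of them near the top of the scale, of which 9 were higher in brown fat and none lower. In the cold 16 carriers were higher in brown fat and 11 lower, where 34.1% of all tested genes were higher and 29.9% lower. Without cold brown fat array 1, 7 carriers were lower in the cold. Both brown fat arrays at room temperature carried muscle transcripts, as given above, and their part in the sizes of the tissue differences was not tested.

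Adenine nucleotide carriers differed in opposite directions between the tissues. Slc25a4 had a log2 intensity of 8.24 and 7.87 in room-temperature brown fat, against 10.85 and 11.17 in muscle. It was 7.76-fold lower in brown fat (log2 difference -2.96, SE 0.16, adjusted p = 1.21e-05). Slc25a5 had 14.01 and 13.90 in brown fat, against 11.21 and 11.36 in muscle, and was 6.38-fold higher in brown fat (log2 difference 2.67, SE 0.21, adjusted p = 4.62e-05). The 2 carriers of ADP and ATP thus lay on opposite sides, with no overlap between the tissues for either. Slc25a3 had 12.12 and 12.19 in brown fat and 13.03 and 13.24 in muscle, a log2 difference of -0.98 (SE 0.15, adjusted p = 0.00081). Of the calcium-regulated ATP-magnesium carriers, Slc25a25 was lower in brown fat (-1.73, adjusted p = 0.000232), Slc25a23 was higher (1.98, adjusted p = 0.000139) and Slc25a24 did not differ past the threshold (-0.12, adjusted p = 0.367). Slc25a23 had 7.80 and 8.11 in brown fat, against 5.92 and 6.02 in muscle, near the level of background.

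The citrate carrier had the largest tissue difference of the family in favour of brown fat. Slc25a1 had 11.01 and 11.93 in room-temperature brown fat, against 5.97 and 6.38 in muscle. The tissues were far apart although its brown fat replicates differed by 0.93, and the difference was 39.2-fold (log2 difference 5.29, SE 0.62, adjusted p = 0.000263). Slc25a10 had 8.94 and 8.70 in brown fat, against 6.68 and 7.17 in muscle, a log2 difference of 1.89 (SE 0.52, adjusted p = 0.0153). The oxoglutarate and malate carrier Slc25a11 went the other way, with 11.89 and 12.03 in brown fat, against 12.56 and 12.54 in muscle (-0.59, SE 0.13, adjusted p = 0.0063). The second tested probe of Slc25a11 gave -0.55 (adjusted p = 0.0304). In the cold Slc25a1 remained 16.3-fold higher in brown fat (log2 difference 4.03, SE 0.62), while Slc25a10 did not differ past the threshold (-0.67, SE 0.52, adjusted p = 0.300) and its tissue groups overlapped. Slc25a1 without the marked arrays was 36.1-fold higher in brown fat in the cold (log2 difference 5.17), without cold muscle array 2 alone the log2 difference was 5.07, and without cold muscle array 1 it was 2.99. The direction of Slc25a10 in the cold turned without both marked arrays (0.63, SE 0.26, adjusted p = 0.0802). Without any background correction the room-temperature difference of Slc25a1 was 4.47.

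Amino acid carriers held the largest difference in favour of muscle. Slc25a12, the calcium-regulated aspartate and glutamate carrier of the malate-aspartate shuttle, had 7.10 and 7.24 in room-temperature brown fat, against 11.94 and 12.00 in muscle. It was 27.8-fold lower in brown fat (log2 difference -4.80, SE 0.35, adjusted p = 3.3e-05). Its level on cold brown fat array 1, which lacked the muscle transcripts, was 6.30, below the 7.47 on cold array 2 and the values at room temperature. In the other direction, Slc25a22 had 10.98 and 10.76 in brown fat, against 7.74 and 7.76 in muscle, an 8.67-fold difference (log2 difference 3.12, SE 0.18, adjusted p = 1.5e-05). Slc25a39, a carrier of glutathione, had 13.69 and 13.65 in brown fat, against 11.65 and 11.86 in muscle (log2 difference 1.92, SE 0.18, adjusted p = 8.74e-05). Of the 7 tested genes of this group, 4 were higher and 2 lower in brown fat, where 32.8% of all tested genes were higher and 33.4% lower. The others that were higher were Slc25a44, a carrier of branched-chain amino acids (1.53), and Slc25a15, the ornithine carrier (0.58), and the other lower gene was Slc25a29, a carrier of basic amino acids (-1.04). The second tested probe of Slc25a15 also passed, at 0.37.

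Of the cofactor and nucleotide carriers, 5 of 6 tested genes were higher in brown fat at room temperature and all 6 in the cold, with medians of 1.29 and 1.18, where 32.8% of all tested genes were higher at room temperature and 34.1% in the cold. Slc25a36 did not pass in the cold without the marked arrays (0.24, adjusted p = 0.272, against 0.52 with all arrays). Slc25a17, which carries coenzyme A and related cofactors and resides in peroxisomes rather than mitochondria, had 10.53 and 10.28 in brown fat, against 7.33 and 7.49 in muscle (log2 difference 2.99, SE 0.37, adjusted p = 0.000334). Slc25a51, the mitochondrial NAD carrier, had 7.81 and 7.97 in brown fat, against 5.56 and 5.74 in muscle (2.24, SE 0.18, adjusted p = 4.82e-05). In muscle Slc25a51 was above background on 1 of the 2 arrays at each temperature, and the size of its difference depended on the handling of background, at 1.59 without background correction and 3.37 in the values processed by the authors. Slc25a33 and Slc25a36, carriers of pyrimidine nucleotides, had log2 differences of 1.57 and 0.95, and Slc25a32, a carrier linked to folate and flavin cofactors, had 1.02. Another probe of Slc25a32 was above background on none of the 8 arrays. Slc25a26 did not differ at room temperature past the threshold (-0.03, adjusted p = 0.836) and was higher in brown fat in the cold (0.62, SE 0.13, adjusted p = 0.00543).

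Both mitoferrins were lower in brown fat. Slc25a37 had 6.86 and 6.70 in room-temperature brown fat, against 8.32 and 8.19 in muscle (log2 difference -1.47, SE 0.17, adjusted p = 0.000209). Slc25a28 had 10.83 and 11.03 in brown fat, against 11.72 and 11.71 in muscle (-0.79, SE 0.14, adjusted p = 0.0018). Among the homologues of the uncoupling proteins, Slc25a27 had 6.25 and 6.50 in brown fat, against 9.17 and 9.15 in muscle. It was 6.90-fold lower in brown fat (-2.79, SE 0.12, adjusted p = 6.09e-06), or -2.15 on the log2 scale without background correction. Another probe of Slc25a27 was above background on none of the 8 arrays, so these values rest on 1 probe. Slc25a14, which is well known from brain, did not pass at room temperature (-0.25, adjusted p = 0.0912) and was lower in brown fat in the cold (-0.38, adjusted p = 0.0218), a call that did not hold with both marked arrays left out (-0.34, adjusted p = 0.132). Slc25a30 passed in both comparisons with opposite signs. It was higher in brown fat at room temperature (0.39, SE 0.13, adjusted p = 0.0278) and lower in the cold (-0.67, SE 0.13, adjusted p = 0.00269). The call of Slc25a30 at room temperature did not hold without any 1 of the 4 room-temperature arrays, with values between 0.35 and 0.44 and adjusted p between 0.0635 and 0.121.

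Of the carriers with little known roles, Slc25a35 had 10.28 and 10.62 in room-temperature brown fat, against 6.73 and 6.69 in muscle, a 13.4-fold difference (log2 difference 3.74, SE 0.32, adjusted p = 6.18e-05), or 3.13 on the log2 scale without background correction. It was the carrier with the next largest excess in brown fat after Slc25a1. Slc25a45 was higher in brown fat (1.05, adjusted p = 0.000335). Slc25a47 was lower (-1.92, SE 0.22, adjusted p = 0.000222) at room temperature, while in the cold its tissue groups overlapped and the difference of -0.40 did not pass (adjusted p = 0.148). With both marked arrays left out, Slc25a47 in the cold had a tissue difference of -0.64 (adjusted p = 0.0301).

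**Figure D3:**
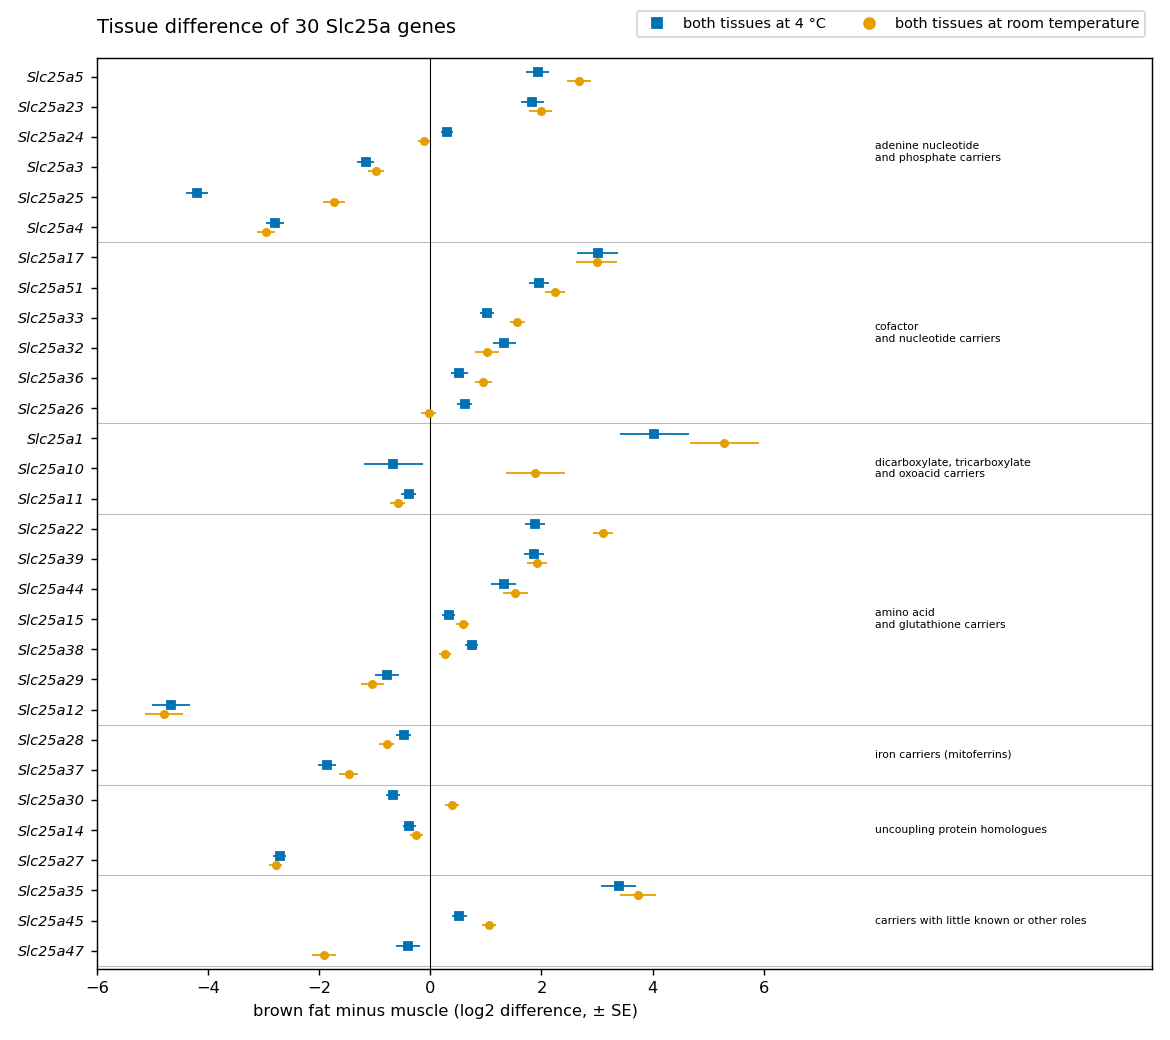
Brown fat minus muscle as log2 difference with bars of ± SE for the 30 tested Slc25a genes, grouped by role, with squares for the tissues at 4 °C and circles for the tissues at room temperature. Slc25a1 reaches 4.03 at 4 °C and 5.29 at room temperature, Slc25a12 lies at -4.67 and -4.80, and Slc25a25 moves to -4.20 at 4 °C, against -1.73 at room temperature.

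Slc25a25 was 18.4-fold lower in brown fat than in muscle in the cold, and 3.31-fold lower at room temperature. The carriers whose tissue difference had the same direction and passed at both temperatures include Slc25a1, Slc25a35, Slc25a17, Slc25a5, Slc25a22 and Slc25a51 among those higher in brown fat and Slc25a12, Slc25a4, Slc25a27 and Slc25a25 among those lower. Slc25a38 and Slc25a26 passed as higher in brown fat only at 4 °C, and the test of the change between temperatures, the difference between cold effects, did not pass for either (adjusted p = 0.137 and 0.101).

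The spread between the 2 cold muscle arrays followed the tissue difference of each carrier. Across the 30 genes the log2 difference of cold muscle array 2 minus array 1 and that of brown fat minus muscle at room temperature had a Pearson correlation of 0.77 and a Spearman correlation of 0.77, as a description over genes that share the same arrays. Of the 17 carriers with higher means in brown fat at room temperature, 12 were higher on array 2, and of the 13 with higher means in muscle, 9 were lower on it. Slc25a1 differed most, with 8.44 on array 2 and 6.36 on array 1. Slc25a10, Slc25a17 and Slc25a35 differed by 1.55, 1.31 and 1.09. The same Pearson correlation was 0.01 for the muscle arrays at room temperature (array 2 minus 1), 0.19 for the cold brown fat arrays (array 1 minus 2) and -0.21 for the brown fat arrays at room temperature (array 1 minus 2). The counts beside 12 of 17 and 9 of 13 were 11 and 6 for the muscle arrays at room temperature. They were 9 and 6 for the cold brown fat arrays and 9 and 8 for the brown fat arrays at room temperature. The room-temperature pairs themselves enter the tissue difference. Neither the counts nor the correlations were computed over all tested genes. Slc25a25 and Slc25a30, the carriers that rose in cold muscle, differed by -0.22 and -0.29 between the cold muscle arrays, with array 2 the lower.

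**Figure D4:**
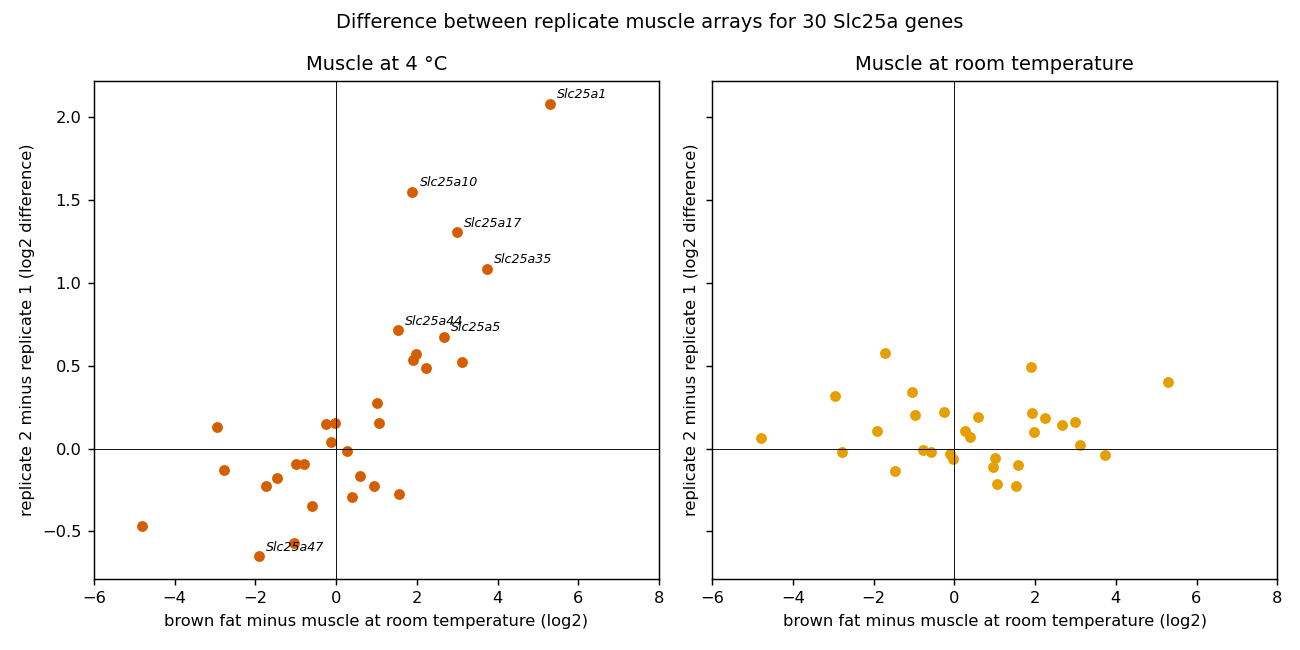
Replicate 2 minus replicate 1 of muscle (vertical axis, log2 difference) against brown fat minus muscle at room temperature (horizontal axis, log2 difference) for the 30 tested Slc25a genes, at 4 °C on the left and at room temperature on the right. At 4 °C the carriers with higher levels in brown fat lie highest, up to 2.08 for Slc25a1, while at room temperature no difference exceeds 0.58 in size.

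Of the 4 tested genes of the same protein family under other symbols, Ucp3 rose in cold muscle. This uncoupling protein had 10.74 and 10.64 in cold muscle, against 8.18 and 8.06 at room temperature, a 5.94-fold rise (log2 difference 2.57, SE 0.19, adjusted p = 0.00227). Between the tissues, Ucp3 was higher in brown fat at room temperature (1.26, adjusted p = 0.000839) and lower there in the cold (-1.69, adjusted p = 0.000228). In brown fat Ucp3 had 9.30 and 8.71 in the cold and 9.43 and 9.33 at room temperature, and the effect did not pass, with a difference between cold effects of -2.95 (SE 0.27, adjusted p = 0.00938). Ucp3 fell in cold brown fat when the marked arrays were left out (-0.67, adjusted p = 0.0283) and its muscle effect was 2.62. Mtch1, Mtch2 and Ucp1 did not pass for either cold effect. For Ucp1 the muscle effect was large but uneven (5.75, SE 1.41, adjusted p = 0.0734), with 9.16 and 14.45 on cold muscle arrays 1 and 2. In brown fat Ucp1 lay between 14.41 and 14.68 on all arrays, near the top of the scale, where a rise may not show. Of 13 other tested genes of mitochondrial membrane transport, 1 rose and 1 fell in cold brown fat and 1 fell in cold muscle, beside 8.38%, 8.24% and 2.38% of all tested genes. Mpc1, a subunit of the pyruvate carrier, had 8.20 and 7.83 in cold brown fat, against 7.47 and 7.51 at room temperature (0.53, SE 0.14, adjusted p = 0.0441). Mpc1 did not pass without the marked arrays (0.34, adjusted p = 0.139). Sfxn2, a sideroflexin linked to mitochondrial iron, had 6.63 and 6.996 in cold brown fat, against 7.55 and 7.77 at room temperature, and 6.61 and 6.68 in cold muscle, against 7.47 and 7.48 at room temperature. It fell in both tissues, by 0.85 in brown fat (adjusted p = 0.0114) and by 0.83 in muscle (adjusted p = 0.0317). Of 13 tested genes of the machinery that imports carriers into the inner membrane, Timm10, a chaperone of the intermembrane space, rose in cold brown fat (0.62, SE 0.16, adjusted p = 0.0390) and none passed in muscle. Timm10 did not pass without the marked arrays (0.46, adjusted p = 0.0858).

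The 9 Slc25a genes that were not tested had log2 intensities between 5.03 and 5.72. Slc25a13, Slc25a16, Slc25a18, Slc25a21, Slc25a31, Slc25a40 and Slc25a41 were above background on none of the 8 arrays, and Slc25a46 and Slc25a48 on 1 each. Slc25a13 is the form of the aspartate and glutamate carrier known from liver, and Slc25a31 is the ADP/ATP carrier of the germ line. Of the 30 tested genes, 28 were above background on all 8 arrays, Slc25a23 on 7 and Slc25a51 on 6. Slc25a20, the acylcarnitine carrier of fatty acid oxidation, was not analysed here.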

How the data were processed

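Total RNA of 8 samples was hybridised to 1-colour Illumina bead arrays, per the labels' protocols. The deposited table of the whole series holds, per the file headers, a signal (an intensity on a linear scale) and a detection score for each of 24607 probes. The deposited intensity values differ in median between arrays (87.3 to 98.1) and were read as not normalized. The deposited detection score grows with the signal and was taken as the complement of a detection p-value. Intensity values processed by the authors were also deposited, of which 32.8% lie below 0. The software behind both tables is not given in the sources used here.

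In R 4.3.3 with limma 3.58.1, signals were corrected with normexp (offset 16, background inferred from detection p-values), quantile normalized and put on the log2 scale. Probes were kept if the detection p on both arrays of any group was under 0.05, and each gene was represented by its tested probe with the highest mean. Gene symbols came from the platform annotation, where 20980 probes carry 1 symbol, 1 carries several and 3626 carry none, and were updated by gene identifier for 20964. The 4 group means were estimated in 1 model of the 8 arrays (lmFit and eBayes, 4 residual and 3.07 prior degrees of freedom), and p-values were adjusted by Benjamini-Hochberg over the 9963 genes. The script was tested on simulated data. Promoter sequences are from RefSeq (GRCm38.p6). No source used here names the build behind the array.

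The members, the role lists, the markers and the rule for named genes (carriers past the threshold for a cold contrast, up to 8 in each direction for the tissue difference at room temperature, and up to 4 others per role list) were chosen with earlier results of these data known. The lists of role groups, mitochondrial genes and markers carry no test of their own. Alternatives changed the background correction, offset, normalization, probe filter, probe choice, table, arrays in the fit and replicate block, and left out arrays. Precision is limited by the number of arrays. Since the labels state neither that replicates are separate mice nor whether tissues share mice, the spread behind the p-values is that between these samples and may be technical. For cold muscle the titles and the descriptions number the 2 arrays the opposite way, and the titles were followed. Deviations of equally numbered arrays from their group means correlated between -0.13 and 0.18 over the 6 pairs of groups. They cannot show whether tissues share mice, since the marked arrays differ in tissue transcripts and the numbering of cold muscle is in doubt. The numbers were not taken to pair samples. Slides are not named in the files, and a slide effect was not tested.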

Additional observations from a re-analysis of the deposited data

Results flagged for a closer look

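The cold effects in the 2 tissues differed past the threshold in limma's test of the difference for 4 carriers. Of all tested genes, 2.08% had a higher and 2.14% a lower cold effect in brown fat. None of the 4 calls held when either brown fat array at room temperature was left out. The difference, brown fat effect minus muscle effect, was -2.48 for Slc25a25 (cold effects of 0.84 and 3.31), with both cold arrays above both room-temperature arrays in either tissue. It was -1.07 for Slc25a30 (0.33 and 1.40), where the effect in brown fat did not pass. It was 1.52 for Slc25a47 (0.58 and -0.94) and -1.22 for Slc25a22 (-0.39 and 0.84), where neither effect passed on its own. For Slc25a22 and Slc25a47, cold muscle array 2, on which brown fat markers reached 59.3% of the highest array, was the extreme array of its pair, and the part of those transcripts was not tested beyond the values without the array.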

How the results depend on the processing

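Over 61 results for single carriers and 1152 values under alternatives, 1058 kept their direction or stayed short of the threshold as before, 86 lost a call, 8 gained one and 0 turned their sign while past the threshold. Median scaling in place of quantile normalization moved the median of all genes to -0.11 for cold in brown fat, -0.20 for cold in muscle, -0.24 for the tissue difference at room temperature and -0.12 for that in the cold. Under it the carriers that rose in brown fat numbered 0, those that rose in muscle 1, those with a higher cold effect in brown fat 0, and 10 carriers were higher and 6 lower in brown fat than in muscle at 4 °C. Over all genes it gave 58 higher and 194 lower in cold brown fat (835 and 821 as reported), 68 and 34 in cold muscle (182 and 237), 16 and 47 for the difference between cold effects (207 and 213), and, between the tissues, 1284 and 2162 at room temperature (3263 and 3331) and 1109 and 1872 at 4 °C (3397 and 2982). The cause was not tested. With no filter on dim probes 1 carrier rose in brown fat and 0 had a higher cold effect there, and with the values processed by the authors 0 carriers had a higher cold effect in brown fat. With only the 4 brown fat arrays fitted 1 rose. With cold brown fat array 1 and cold muscle array 2 both left out, 0 rose and 3 fell in brown fat, and 0 had a higher cold effect there. With the replicate block, 1 rose in brown fat, 0 had a higher and 1 a lower cold effect there. With the replicate block numbered by the descriptions, chosen after seeing the data, 1 fell in cold muscle. Leaving out 1 array at a time gave 0 to 4 higher and 0 to 2 lower carriers in cold brown fat, 2 to 7 and 0 to 1 in cold muscle, 0 to 1 and 0 to 6 for the difference, and 7 to 11 lower in brown fat in the cold. Over all genes the counts in cold brown fat ranged from 58 to 940 higher and 194 to 904 lower, in cold muscle from 27 to 455 and 19 to 260, and for the difference from 7 to 264 and 9 to 553. These ranges over all genes cover all alternatives, not only those that left out 1 array. A slide or scan block was not run, since the files name no slides.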
